A study of Danio rerio with 6 samples.

Results

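The miR-17, miR-18 and miR-20 miRNAs of the zebrafish embryo were taken from the small RNA table by their mature names, a number of 17, 18 or 20 followed by a letter and any arm suffix. This gave 9 of the 230 mature miRNAs listed, namely dre-miR-17a-5p, dre-miR-17a-3p, dre-miR-18a, dre-miR-18b-5p, dre-miR-18b-3p, dre-miR-18c, dre-miR-20a-5p, dre-miR-20a-3p and dre-miR-20b, written without the species prefix from here on. They come from 7 hairpins, 3 of which are listed with both arms. The rule used names alone, but it was set with earlier results of these data known. The embryos were wild-type AB zebrafish injected at the 1-cell stage with 1.5 ng of MO-Tbx5a, a morpholino that blocks translation of tbx5a, or with 1.5 ng of the control morpholino MO-Ct, and they were collected at 24 or 48 h post fertilization (hpf). The earlier stage had 2 libraries for each morpholino, and the later stage had 1 for each. Each library was made from a pool of 50 whole embryos, so a value is an average over all tissues and over animals. No library came from uninjected embryos, and the effect of the morpholino on Tbx5a protein cannot be read from miRNA values. The study's own list gives fewer miRNA reads for every library than this table. For the later pair, the library with more reads carries the opposite label in that list, as it would with their names exchanged. Every direction between morpholinos at 48 hpf is therefore given as the libraries are labelled.

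A miRNA is cut from a hairpin precursor, and either strand of the hairpin, the 5p or the 3p arm, can be loaded into a silencing complex that pairs with messenger RNAs through a short seed near the 5′ end of the miRNA. In vertebrates the miR-17, miR-18 and miR-20 hairpins lie with miR-19 and miR-92 hairpins in clusters transcribed as 1 long RNA, and duplicated clusters carry related copies. miR-17 and miR-20 share a seed, and miR-18 has one of its own that resembles it. In mammals these clusters are known for promoting proliferation and survival of progenitor cells, and for roles in the development of the heart and the lung. Among the hairpins of the 9 miRNAs and of their usual neighbours, the RefSeq gene table of GRCz12tu places mir-17a-1, mir-18a and mir-20a beside mir-19a, mir-19b and mir-92a-1. It places mir-17a-2 and mir-18b beside mir-92a-2, and mir-18c and mir-20b beside mir-19c and mir-363, with neighbours in each cluster less than 10000 bases apart.

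The deposited values are reads divided by the DESeq size factor of the library, called normalized reads here. From the value of 1 read in each library, the mature miRNAs received 1699876 to 3148888 reads per library. These counts are larger than those the study lists, and the reason was not tested. The 9 miRNAs received 4543 to 9571 of the reads obtained here, and each was detected in all 6 libraries. Their share of all normalized reads was 0.267% to 0.329% at 24 hpf and 0.349% to 0.353% at 48 hpf. The miR-430 family, which is abundant in the early embryo, took 46.0% to 58.7% of the reads at 24 hpf. Its share at 48 hpf was 15.2% for the label MO-Ct and 5.15% for the label MO-Tbx5a. Markers of muscle, the nervous system, blood, endothelium and epithelia were also detected in all 6 libraries. Over the 3 nervous system markers the summed level ranged from 2049 to 3153 normalized reads at 24 hpf, and at 48 hpf it was 11639 under the label MO-Ct and 46880 under the label MO-Tbx5a. The sums for muscle and for blood were also higher in both libraries at 48 hpf than in any at 24 hpf. Of the 7 muscle miRNAs, miR-1 and miR-133a-3p had positive log2 changes between stages, at 2.28 and 1.97. The changes were negative for miR-206 (-0.82), miR-133a-5p (-0.18), miR-133b-3p (-0.26), miR-133b-5p (-3.59) and miR-133c (-0.36). The sums for endothelium and for epithelia were lower on this deposited scale. The total of each library was 2671388 to 3186863 normalized reads at 24 hpf. At 48 hpf it was 1185484 for the label MO-Ct and 1062036 for the label MO-Tbx5a. As shares of that total, the sums for endothelium and for epithelia were higher in both libraries at 48 hpf. What part these differences had in the results was not tested.

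The most abundant members were the 5p arms of miR-20a and miR-17a, and all 9 were lower at 48 hpf than in any library at 24 hpf on the deposited scale. miR-20a-5p had a mean of 2708 normalized reads at 24 hpf and 1118 at 48 hpf, and miR-17a-5p had 2643 and 1102. miR-18c followed with 1367 and 791, then miR-20b with 754 and 455. miR-18a had 556 and 222, and miR-20a-3p had 468 and 158. miR-18b-5p, miR-17a-3p and miR-18b-3p were the lowest, with 135, 131 and 38.9 at 24 hpf and 54.0, 34.7 and 8.92 at 48 hpf. Mature miRNAs are of nearly the same length, so these levels were not divided by it. The order is one of reads, and whether miRNAs differ in reads per molecule was not tested. Neighbours in this order lay apart at 24 hpf except at its top and near its end. The libraries of miR-20a-5p (2594 to 2906) overlapped those of miR-17a-5p (2386 to 2965), and those of miR-18b-5p (118 to 154) overlapped those of miR-17a-3p (117 to 148). Among the 230 mature miRNAs, miR-17a-5p and miR-20a-5p ranked between 45 and 51 at 24 hpf, and miR-18b-3p between 169 and 185. The mir-17a-1 and mir-17a-2 hairpins gave miR-17a-5p values that differed by 1 to 17 reads of 1391 to 2851 in each library, so their copies could not be told apart and were averaged.

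**Figure D1:**
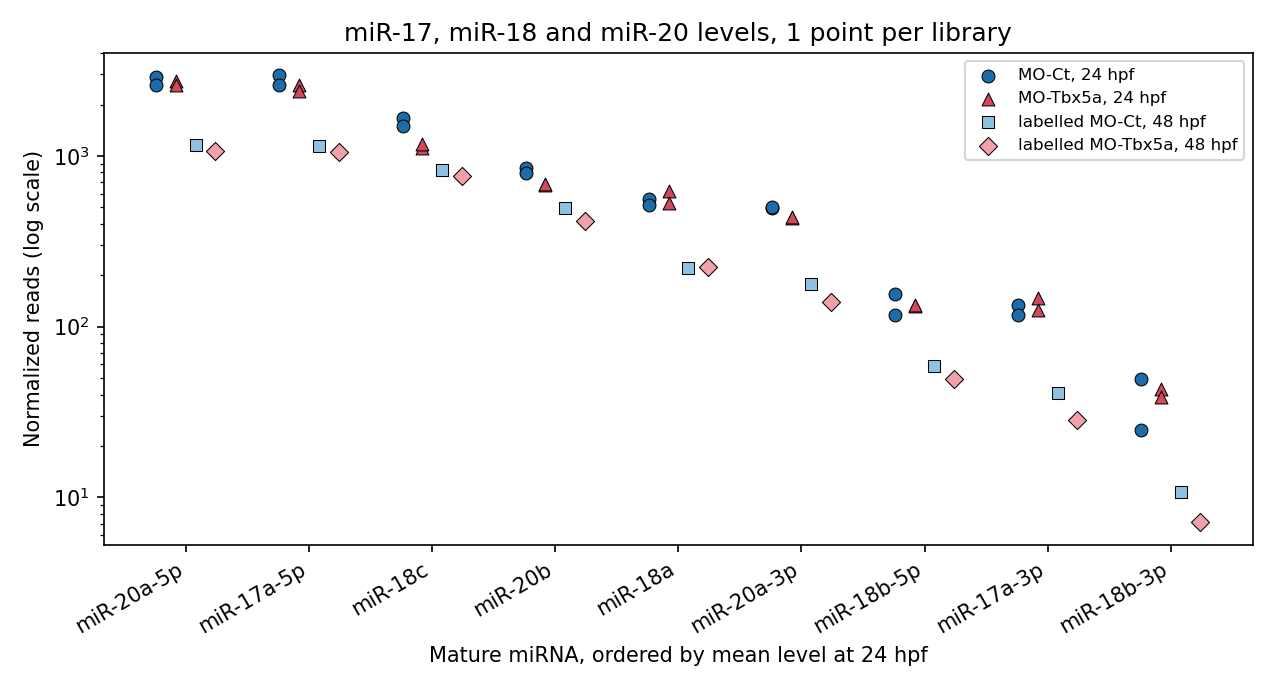
Normalized reads (log scale) of the 9 miRNAs in each of the 6 libraries, with 1 point per library and the groups shown by marker and colour. On this deposited scale both libraries at 48 hpf lie below all 4 at 24 hpf for every miRNA, whereas 6 of the 9 changes are positive when the libraries are scaled to their totals.

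The change from 24 to 48 hpf was tested with all 6 libraries in 1 fit, 4 against 2, with a term for the morpholino. On the deposited scale all 9 miRNAs fell, with log2 changes from -1.89 to -0.72 and adjusted p from 0.00119 to 0.0118 (limma with Benjamini-Hochberg adjustment over 214 miRNAs; SE is the standard error of a log2 change). Of all miRNAs tested, 33.6% were called lower and 18.7% higher at 48 hpf, and the median log2 change was -0.29 over all and -1.29 over the 9. The groups did not overlap, with 48 hpf lower, for all 9 and for 39.7% of all miRNAs tested. In whole embryos, fewer cells that carry a miRNA and less of it per cell cannot be told apart. The direction rests on the scaling of the libraries: when each library was scaled to its total instead, the median of all miRNAs moved up by 1.41, 6 of the 9 changes were positive, and miR-18c and miR-20b were called higher. All 9 lay below the median of all miRNAs, by 0.43 to 1.77 on the log2 scale. This held under the deposited scale, median-ratio factors, library totals and totals without miR-430. A change of scaling moves every miRNA of a library alike, apart from the pseudocount and the filter, so these settings are not separate checks. Of all miRNAs tested, 72 were called lower and 40 higher on the deposited scale, 50 and 53 with median-ratio factors, and 12 and 154 with library totals.

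The large 5p arms and miR-18a, all from the mir-17a-1 and mir-17a-2 clusters, fell by nearly the same amount on the deposited scale, and with library totals their changes were slightly positive. miR-17a-5p had 2965 and 2619 normalized reads in the MO-Ct libraries at 24 hpf, 2604 and 2386 in the MO-Tbx5a libraries, and 1148 and 1056 in those labelled MO-Ct and MO-Tbx5a at 48 hpf. In the same order miR-20a-5p had 2906 and 2594, 2731 and 2601, and 1163 and 1072. The higher library at 48 hpf lay below the lowest at 24 hpf for both, at 1148 against 2386 and at 1163 against 2594. The log2 changes were -1.26 for miR-17a-5p (SE 0.17, limma adjusted p = 0.00143) and -1.27 for miR-20a-5p (SE 0.16, limma adjusted p = 0.00134), or 2.39-fold and 2.42-fold lower. miR-18a, whose seed differs from theirs, had 558 and 513 in the MO-Ct libraries at 24 hpf, 619 and 532 in the MO-Tbx5a libraries, and 221 and 223 in those labelled MO-Ct and MO-Tbx5a at 48 hpf. Its log2 change was -1.31 (SE 0.19, limma adjusted p = 0.00224). miR-18b-5p, from the mir-17a-2 cluster, had a log2 change of -1.29 (SE 0.26, limma adjusted p = 0.00578), with 118 to 154 normalized reads at 24 hpf and 49.3 to 58.8 at 48 hpf.

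On the deposited scale the members of the mir-18c and mir-20b cluster had the smallest log2 changes of the 9, whereas with library totals they had 2 of the 3 largest in size, both positive. miR-18c had 1668 and 1506 normalized reads in the MO-Ct libraries at 24 hpf, 1115 and 1180 in the MO-Tbx5a libraries, and 823 and 759 in those labelled MO-Ct and MO-Tbx5a at 48 hpf. Its log2 change was -0.77 (SE 0.18, limma adjusted p = 0.0105), or 1.70-fold lower. miR-20b had 855 and 798, 678 and 683, and 495 and 415 in the same order, with a log2 change of -0.72 (SE 0.18, limma adjusted p = 0.0118). For both, the libraries at 48 hpf lay below all 4 at 24 hpf. With library totals both were higher at 48 hpf, by 0.63 and 0.67. With median-ratio factors the adjusted p was 0.0808 for miR-18c and 0.0699 for miR-20b from limma, and without MO-Tbx5a replicate 2 at 24 hpf it was 0.0502 for miR-20b.

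**Figure D2:**
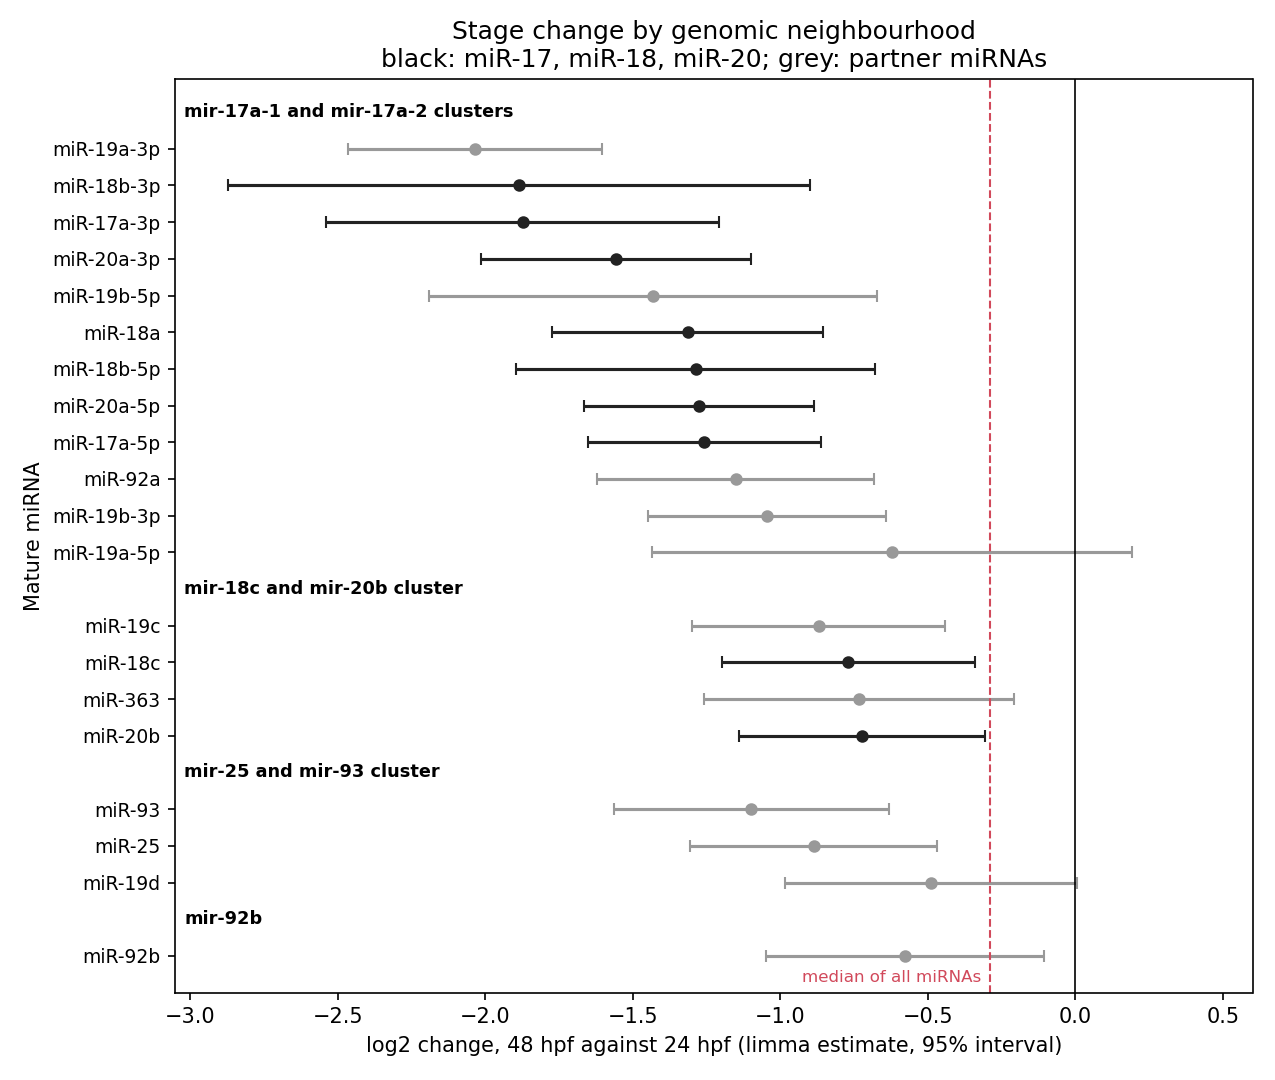
Log2 change from 24 to 48 hpf on the deposited scale, as the limma estimate over 6 libraries with its 95% interval, for the 9 miRNAs (black) and 11 partner miRNAs (grey), grouped by hairpin cluster. All 9 lie left of the median of all miRNAs (dashed, -0.29), with miR-18c and miR-20b nearest to it, while 6 of the 9 changes turn positive with library totals.

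Apart from the small pseudocount, ratios of members within a library do not depend on the scaling between libraries, and 12 such ratios were compared between stages by an exact two-sided permutation test, whose smallest p with 4 libraries against 2 is 0.0667. They pair the arms of a hairpin, hairpins with the same number, or neighbours in a cluster. miR-20b amounted to 0.294 and 0.308 of miR-20a-5p in the MO-Ct libraries at 24 hpf and to 0.248 and 0.263 in the MO-Tbx5a libraries. At 48 hpf it amounted to 0.425 and 0.387 in those labelled MO-Ct and MO-Tbx5a, above all 4 earlier libraries. The log2 ratio was higher by 0.55 at 48 hpf (exact permutation p = 0.0667, adjusted p = 0.20 over 12 ratios). The ratio of miR-18c to miR-18a was 2.99 and 2.94 in the MO-Ct libraries at 24 hpf, at most 2.22 in the MO-Tbx5a libraries, and 3.73 and 3.41 in those labelled MO-Ct and MO-Tbx5a at 48 hpf, a log2 difference of 0.55 (exact permutation p = 0.133, adjusted p = 0.267). The ratio of miR-18c to miR-18b-5p differed by 0.52 between stages, again with no overlap (exact permutation p = 0.133, adjusted p = 0.267). None of the 12 reached an adjusted p under 0.05, which this design cannot give. Many of the 12 share a member, and the share of all possible ratios that lay apart between stages was not computed.

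Ratios between members that neighbour each other in a cluster overlapped between the stages. Ratios to other hairpins of these clusters, such as mir-19a, mir-19b and mir-92a-1, were not compared. On the deposited scale the most read arms of the mir-17a-1 cluster changed by -2.03 (miR-19a-3p) to -1.05 (miR-19b-3p). The log2 ratio of miR-17a-5p to miR-20a-5p changed by 0.02 between stages, and that of miR-20a-5p to miR-18a by 0.04. For miR-18c to miR-20b, the pair from the third cluster, it changed by -0.04. The 5 ratios between neighbouring members changed by -0.04 to 0.06 and overlapped between stages in each case, with exact permutation p from 0.60 to 0.933. The ratio of miR-18b-5p to miR-18a, hairpins of different clusters, changed by 0.03 and also overlapped. The 2 ratios of a member of the mir-18c and mir-20b cluster to its namesake in the mir-17a-1 cluster thus stood apart between stages, as did that of miR-18c to miR-18b-5p, and the other 6 ratios between hairpins did not. Values of miR-17a-5p average the mir-17a-1 and mir-17a-2 hairpins, so its ratios are not confined to 1 cluster. Mapping accepted near matches, and the effect of reads shared between similar members on these ratios was not tested.

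The 3p arms had larger log2 changes than the 5p arms of the same name. miR-17a-5p is also listed for mir-17a-2, which has no 3p arm in the table, so the miR-17a arm ratio is not confined to 1 hairpin. miR-17a-3p had 134 and 117 normalized reads in the MO-Ct libraries at 24 hpf, 148 and 125 in the MO-Tbx5a libraries, and 41.0 and 28.5 in those labelled MO-Ct and MO-Tbx5a at 48 hpf. Its log2 change was -1.87 (SE 0.28, limma adjusted p = 0.00238), or 3.66-fold lower on the deposited scale and -0.52 with library totals (adjusted p = 0.0871 from limma). miR-20a-3p had 493 and 505, 430 and 442, and 177 and 140 in the same order, with a log2 change of -1.56 (SE 0.19, limma adjusted p = 0.00119). miR-18b-3p was the least abundant, with 49.2 and 24.8, 43.1 and 38.5, and 10.7 and 7.12, and its log2 change was -1.89 (SE 0.42, limma adjusted p = 0.00815). Only 23 and 13 reads lay behind its values at 48 hpf, in the libraries labelled MO-Ct and MO-Tbx5a, and the MO-Ct replicates at 24 hpf differed by 0.93 on the log2 scale. The log2 ratio of the 5p to the 3p arm was higher at 48 hpf in both libraries than in any library at 24 hpf for all 3 hairpins, except that with a pseudocount of 8 in place of 2 the miR-18b ratio overlapped and its stage difference was 0.25 in place of 0.60. Its mean was 4.31 at 24 hpf and 4.93 at 48 hpf for miR-17a, 1.78 and 2.37 for miR-18b, and 2.53 and 2.81 for miR-20a, each difference with an exact permutation p of 0.0667, the smallest this design allows (adjusted p = 0.20). On the linear scale miR-17a-5p was 17.6 to 22.4 times miR-17a-3p at 24 hpf, and 28.0 and 37.1 times at 48 hpf. These 3 hairpins were the only ones among the 7 listed with both arms. The share of the other hairpins in the table whose arm ratio rose without overlap was not computed. In the mir-17a-1 cluster the more read arms of mir-19a and mir-19b are the 3p arms. On the deposited scale these had log2 changes of -2.03 and -1.05, and their 5p arms had -0.62 and -1.43. The less read arm thus had the larger change for mir-19b and the smaller for mir-19a.

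**Figure D3:**
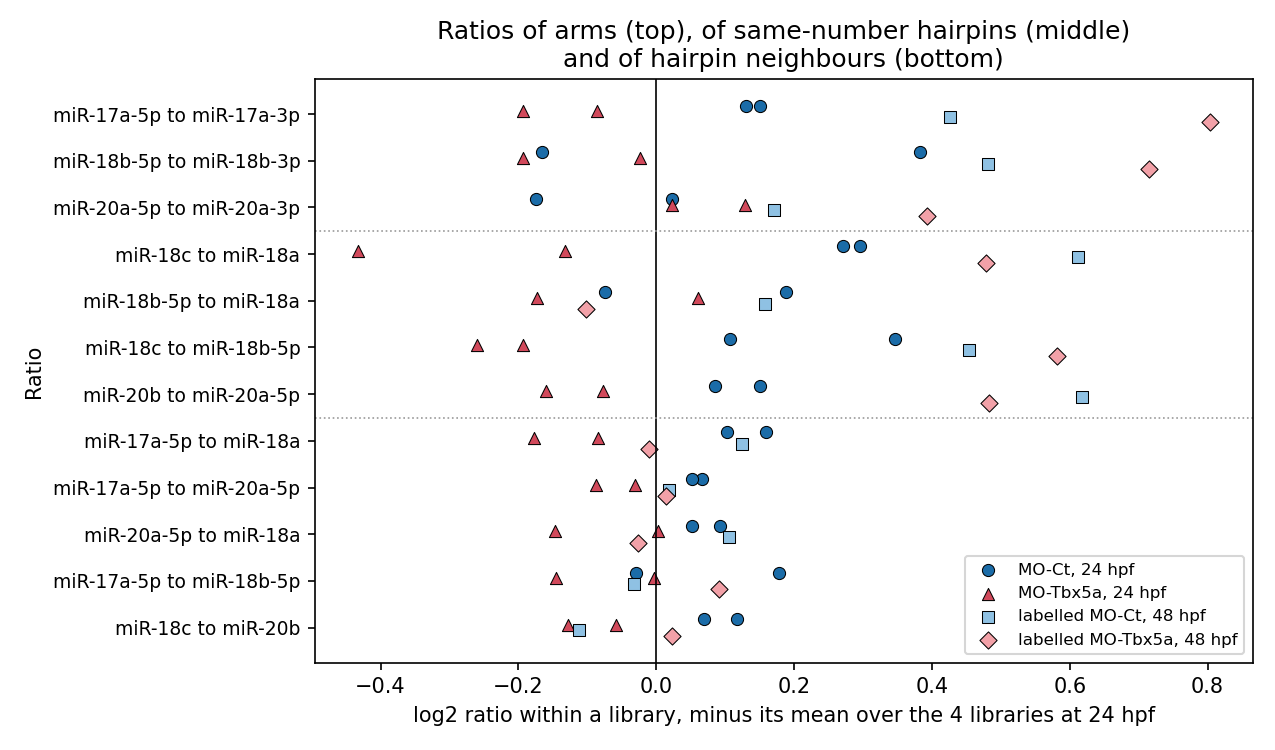
Log2 ratio of 2 miRNAs within each library, minus the mean of that ratio over the 4 libraries at 24 hpf, with 1 point per library. The 3 arm ratios at the top and 3 ratios that involve miR-18c or miR-20b in the middle lie higher at 48 hpf than in every library at 24 hpf. The 5 ratios of members that neighbour each other in a cluster, at the bottom, overlap between stages.

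At 24 hpf, none of the 9 miRNAs passed the test between MO-Tbx5a and MO-Ct embryos, which asks whether the depletion of Tbx5a modulates their level. The log2 fold changes lay between -0.46 and 0.21, with a median of -0.04, and the median over all miRNAs tested was -0.01. In the same test 7.62% of 210 miRNAs had an adjusted p under 0.05 (limma with Benjamini-Hochberg adjustment). At an unadjusted p under 0.05 it was 1 of the 9, miR-18c, and 21.0% of all miRNAs. MO-Tbx5a lay below MO-Ct without overlap for 4 of the 9, miR-17a-5p, miR-18c, miR-20a-3p and miR-20b, and for 29.5% of all miRNAs tested. None of the 9 lay above without overlap, and 52.4% of all miRNAs did not overlap in either direction. The count over all miRNAs fell to 0 without either MO-Ct replicate and to 5 without MO-Tbx5a replicate 1, and was 14 without MO-Tbx5a replicate 2, with 0 of the 9 in each case.

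The largest difference was that of miR-18c, with 1587 ± 114 normalized reads in MO-Ct embryos and 1148 ± 46.0 in MO-Tbx5a embryos (SD, n = 2 each). Its log2 fold change was -0.46 (SE 0.17, 95% interval -0.80 to -0.13, limma adjusted p = 0.0643), and with each library left out in turn it stayed between -0.54 and -0.39. Its cluster neighbour miR-20b had 827 ± 40.0 and 680 ± 4.17 in the same order (SD, n = 2 each), and a log2 fold change of -0.28 (SE 0.19, limma adjusted p = 0.423). miR-20a-5p, its relative with the same number, had 2750 ± 220 and 2666 ± 91.6 (SD, n = 2 each), a log2 fold change of -0.04 with a 95% interval from -0.36 to 0.27. For miR-18a the log2 fold change was 0.10, with an interval from -0.28 to 0.49, and for miR-17a-5p it was -0.16, with an interval from -0.48 to 0.16. The log2 ratio of miR-18c to miR-18a was lower in both MO-Tbx5a libraries than in both MO-Ct libraries, by 0.57 on average, and that of miR-20b to miR-20a-5p by 0.24 (exact permutation p = 0.333 for each, the smallest that 2 libraries against 2 allow, adjusted p = 0.50). Of the 12 ratios within a library, 8 did not overlap between the morpholinos at 24 hpf, beside 52.4% of all single miRNAs tested. Many of the 12 share a member, so they are not separate observations, and the share over all possible ratios was not computed. The arm ratios behaved differently from each other, at a difference of -0.28 without overlap for miR-17a, -0.22 with overlap for miR-18b and 0.15 with overlap for miR-20a.

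**Figure D4:**
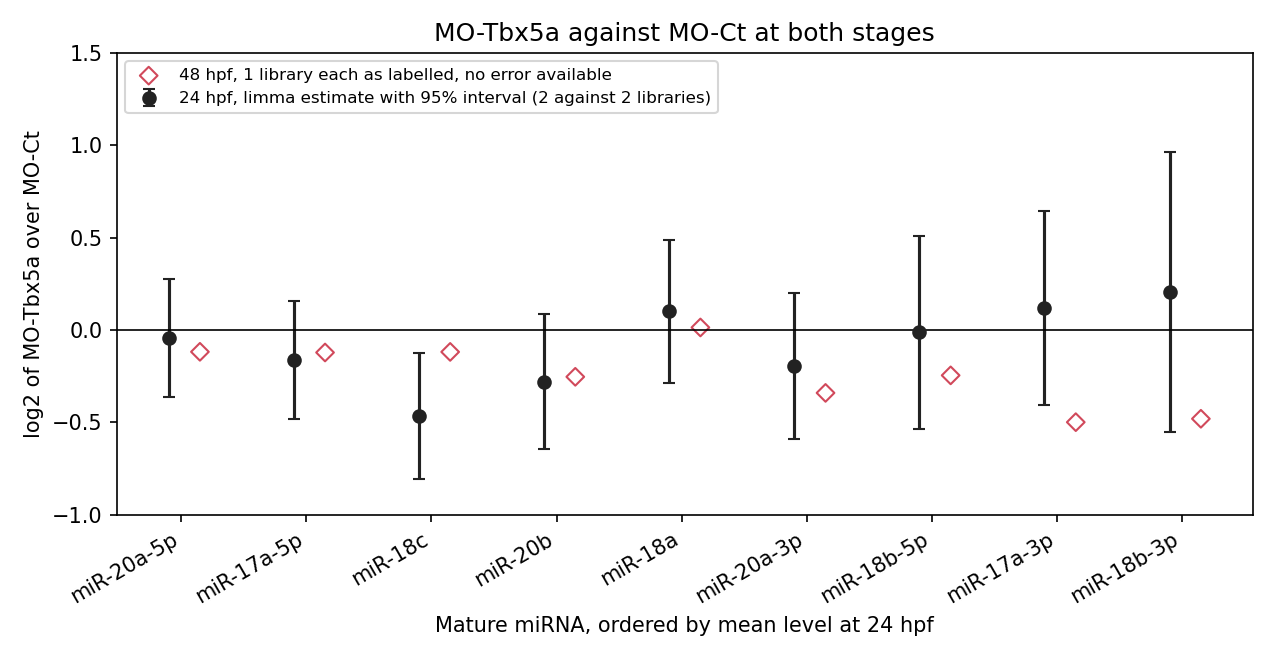
Log2 of MO-Tbx5a over MO-Ct for the 9 miRNAs, at 24 hpf as the limma estimate with its 95% interval (2 libraries against 2) and at 48 hpf as the ratio of 1 library to 1 as labelled, with no error. The interval at 24 hpf leaves out 0 for miR-18c alone, before adjustment, and the values at 48 hpf lie between -0.50 and 0.01, 3 of which turn positive with library totals. With totals without miR-430, miR-17a-5p, miR-18b-5p and miR-20a-5p turn positive at 24 hpf.

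At 48 hpf each morpholino had 1 library, so no difference has a replicate check. None of the 9 miRNAs was 2-fold apart between the library labelled MO-Tbx5a and that labelled MO-Ct, where 25.6% of 219 miRNAs were. The log2 ratio was negative for 8 of the 9 and lay between -0.50 and 0.01, with a median of -0.25, beside a median of -0.06 over all miRNAs, and with library totals miR-17a-5p, miR-18c and miR-20a-5p turned slightly positive, at 0.04 each. With the names of both libraries exchanged every one of these ratios takes the opposite sign, so that 8 of the 9 are positive and the 3p arms are the highest. For 6 of the 9 the size of the ratio did not exceed the larger of that miRNA's replicate gaps in the MO-Ct and MO-Tbx5a groups at 24 hpf. The share of all miRNAs for which this held was not computed. As labelled, the lowest were those of the 3p arms, -0.50 for miR-17a-3p from 52 and 88 reads in the libraries labelled MO-Tbx5a and MO-Ct, and -0.48 for miR-18b-3p from 13 and 23 reads. The exact 95% binomial interval of the latter, which covers counting error only, ran from -1.70 to 0.45. miR-18a had a log2 ratio of 0.01, and miR-18c had -0.12, with counting intervals from -0.18 to 0.21 and from -0.22 to -0.02. Whether the difference between morpholinos changed between stages was tested in 1 fit of all 6 libraries, which assumes that single libraries at 48 hpf vary as the replicates at 24 hpf did. None of the 9 was called (limma, adjusted p 0.373 to 0.940), beside 33.2% of 214 miRNAs. None of the 9 had an unadjusted limma p under 0.05. Over all miRNAs the share at that level was not counted, and it is at least the 33.2% called. With the names of the libraries at 48 hpf exchanged, 48 miRNAs were called, again with 0 of the 9. The count as labelled, 71, was 21 without MO-Ct replicate 1, 15 without MO-Ct replicate 2 and 44 without MO-Tbx5a replicate 1, with 0 of the 9 in each case. For miR-18c the difference between stages was 0.35 (SE 0.31, limma adjusted p = 0.409), and with the names exchanged it was 0.58 (limma adjusted p = 0.172).

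The partner list held the miRNAs that share a cluster type or a seed with these in vertebrates, of which 11 were listed, from miR-19, miR-25, miR-92, miR-93 and miR-363. On the deposited scale 9 of the 11 fell from 24 to 48 hpf by limma, beside 33.6% of all miRNAs tested. None rose, and miR-19a-5p (-0.62) and miR-19d (-0.49) did not pass the test. The median log2 change of the 11 was -0.89, beside -1.29 for the 9 miRNAs. In the mir-17a-1 cluster, miR-19b-3p changed by -1.05 and the 5p arm of the same hairpin by -1.43. miR-92a, averaged over mir-92a-1 of this cluster and mir-92a-2 of the mir-17a-2 cluster, changed by -1.15. In the mir-18c and mir-20b cluster, miR-19c changed by -0.87 and miR-363 by -0.73, next to -0.77 and -0.72 for miR-18c and miR-20b. In a further cluster, where mir-25, mir-19d and mir-93 neighbour each other, miR-25 changed by -0.89 and miR-93, which shares the miR-17 seed in vertebrates, by -1.10. miR-19a-3p, whose values at 48 hpf are not whole multiples of the value of 1 read, had -2.03, from 2530 to 3286 normalized reads at 24 hpf and 589 and 858 in the libraries labelled MO-Ct and MO-Tbx5a at 48 hpf. None of the 11 was 2-fold apart between morpholinos at 48 hpf, beside 25.6% of 219 miRNAs.

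At 24 hpf, 1 of the 11 partners passed the test, beside 7.62% of all miRNAs tested. It was miR-92b, which is named here because of its values. It had 51742 ± 2861 normalized reads in MO-Ct embryos and 33550 ± 7628 in MO-Tbx5a embryos (SD, n = 2 each), a log2 fold change of -0.64 (SE 0.16, limma adjusted p = 0.00182). Its limma adjusted p was 0.0714 with median-ratio factors, 0.178 with library totals, 0.139 with totals without miR-430 and 0.244 without the variance trend. Among all settings tried, the lowest limma adjusted p of miR-92b was 5.46e-09. With each library left out in turn its log2 fold change lay between -0.88 and -0.41. miR-93 had 1157 and 982 in the MO-Ct libraries, 831 and 815 in the MO-Tbx5a libraries, and a log2 fold change of -0.37 (SE 0.18, limma adjusted p = 0.204).

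Profiles over the 6 libraries were compared among the 214 miRNAs with enough reads, as the root mean square difference of log2 values after centring each miRNA on its own mean. The measure describes these libraries, which share 2 stages and 1 scaling. Of the 27 nearest miRNAs, 3 for each member, 14 were other members, 2 were partners and 11 were neither. miR-17a-5p and miR-20a-5p were nearest to each other, at a difference of 0.05, followed for both by miR-18b-5p, and the third was miR-92a for miR-17a-5p and miR-18a for miR-20a-5p. miR-18a was nearest to miR-20a-5p (0.09), miR-16a (0.10) and miR-17a-5p (0.12), and miR-18b-5p to miR-20a-5p (0.08), miR-17a-5p (0.10) and miR-30e-3p (0.11). miR-18c and miR-20b were nearest to each other, at 0.09, followed by miR-30d (0.14) and miR-25 (0.16) for miR-18c and by miR-10c (0.10) and miR-30d (0.11) for miR-20b. The 3p arms had other neighbours than their 5p arms in part. miR-17a-3p lay nearest to miR-196d (0.12), miR-101b (0.18) and miR-155 (0.20), and miR-18b-3p to miR-155 (0.12), miR-17a-3p (0.22) and miR-196d (0.24). miR-20a-3p lay nearest to miR-20a-5p and miR-17a-5p, both at 0.17, and to miR-10a-3p (0.19). The median difference from all other miRNAs was 0.49 to 0.87.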

How the data were processed

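Per the labels and the study's methods, total RNA from whole embryos was sequenced as small RNA, demultiplexed with CASAVA 1.8, trimmed with Cutadapt and mapped to zebrafish miRBase precursors with miRExpress, which accepts near matches, so that reads of similar members could be shared. Reads were summed per precursor and mature miRNA and scaled by the authors with size factors from DESeq, so each deposited value is a signal that need not be whole. Values were averaged per mature miRNA. In each library they were whole multiples of the value of 1 read, within 0.05 reads, for 1708 of 1710 values above 0. Reads per library so obtained are those given with the results, and binomial intervals cover counting error only.

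limma 3.58.1 in R 4.3.3, with its variance trend switched on, was applied to log2(value + 2), a scale that shrinks changes of low values, after removal of miRNAs that did not reach 10 normalized reads in 2 or more libraries of the fit. Tests were two-sided, with calls at a Benjamini-Hochberg adjusted p under 0.05. Stage fits had a morpholino term. Equal replicate numbers are not stated to share anything, so no block was used, and the units compared were these pools of embryos. For the morpholino difference and its change between stages, limma errors and p-values rested almost wholly on the variance trend over all miRNAs. The spread between pools of the miRNA tested had little weight in them. In the stage fit both had weight. Ratios used exact permutation tests. Named were the 9 members, the 3 nearest profiles of each member and all 11 partners, where the plan was at most 8 of those called. miR-106 was on the partner list and had no row in the table. Members and lists were chosen with earlier results of these data known. Fits were tested on simulated data. Mature sequences were not used here. Python 3.11.15, pandas 2.3.3 and numpy 2.4.6 were used.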

Additional observations from a re-analysis of the deposited data

How the results depend on the processing

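Totals without miR-430 were added after the data were seen, and a test for counts was not run. The number of miRNAs called at 24 hpf, 16 (7 higher, 9 lower), was 6 (2 and 4) with median-ratio factors, 0 by limma on library totals (38 without adjustment at 0.05), 2 with totals without miR-430 and 1 without the variance trend, and with each library left out it ranged from 0 to 14. None of the 9 miRNAs was called under these settings. At 24 hpf the log2 fold change of miR-18b-5p, -0.01, was 0.00344 with median-ratio factors. With totals without miR-430 those of miR-17a-5p, miR-18b-5p and miR-20a-5p were 0.0281, 0.174 and 0.146. With each library left out the range was -0.20 to 0.18 for miR-18b-5p, -0.12 to 0.0391 for miR-20a-5p, -0.26 to 0.67 for miR-18b-3p and -0.00830 to 0.21 for miR-18a. A replicate block gave 39 calls at 24 hpf (12 higher, 27 lower), with 1 of the 9 among them, miR-18c (adjusted p = 0.000845 from limma, where the other settings gave 0.0644 to 0.536). The labels do not say that equal replicate numbers share anything. The study's methods mention 2 independent embryo batches for the morpholinos at 24 hpf, and do not state whether both morpholinos shared a batch. The replicate differences of both groups correlated at r = 0.28 across 210 miRNAs. No block could be used over stages, since the libraries at 48 hpf carry no replicate number.

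Over stages, the number of the 9 called lower was 0 with library totals, where the log2 changes were 0.14 for miR-17a-5p, 0.0751 for miR-18a, 0.0779 for miR-18b-5p, 0.63 for miR-18c, 0.12 for miR-20a-5p and 0.67 for miR-20b. It was 7 with median-ratio factors and with totals without miR-430, and 8 to 9 with each library left out. With the names of the libraries at 48 hpf exchanged it was 9. The number of miRNAs whose morpholino difference changed between stages, 71, was 46 with library totals, 30 without the variance trend, 48 with the names at 48 hpf exchanged, 15 to 58 with each library at 24 hpf left out and 100 with every precursor row fitted on its own, which tests more rows, and none of the 9 was called in any of these. At 48 hpf the number of miRNAs past the fold, 56, was 105 at 1.5-fold, where it was 0 of the 9. Of the 12 ratios, 6 lay apart between stages, 6 to 7 with each library left out and 5 with a pseudocount of 8, where the miR-18b arm ratio overlapped. The causes of these shifts were not tested. Depth limits miR-18b-3p most, with 13 to 43 reads per library.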

Other observations

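In the 6 libraries, 1708 of 1710 values above 0 were whole multiples of the value of 1 read, within 0.05 reads. The other 2 both belong to miR-19a-3p in the libraries at 48 hpf. Its 589 normalized reads in the library labelled MO-Ct correspond to 1263.452 reads, and its 858 in that labelled MO-Tbx5a to 1567.446 reads. At 24 hpf its values were whole. The stage change of -2.03 and the log2 ratio at 48 hpf of 0.54 for miR-19a-3p rest on these 2 values. A footnote of the study says that its miR-19a-3p data come from earlier published work, and whether this holds for the values in the deposited table was not tested. In the same hairpin miR-19a-5p, whose values were whole, had a log2 stage change of -0.62.

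Left without the miR-430 family, the normalized reads of the 9 miRNAs made up 0.610% to 0.646% of the rest in the 4 libraries at 24 hpf, and 0.412% and 0.372% in those labelled MO-Ct and MO-Tbx5a at 48 hpf. With the miR-430 family included their share was higher at 48 hpf than in any library at 24 hpf.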
